A study of Mus musculus with 12 samples.

Results

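Wild type arrays were compared with arrays from mice carrying a targeted Spdef allele, in stomach and colon together. The comparison used all 12 arrays of the series: 4 from wild type mice (WT) and 8 from carriers, which were 4 heterozygous (HET) and 4 knockout (KO, written KN in the sample titles). Each genotype was represented by 2 arrays from stomach and 2 from colon. All samples were total RNA of whole, flash-frozen tissue from 16 week old C57BL/6 mice with no treatment, hybridised to the Affymetrix HT Mouse Genome 430 array, on which each transcript is read by 1 or more sets of short probes. How the Spdef allele was made, how far it was crossed to C57BL/6, whether WT mice were littermates of the carriers, and the sex of the animals are not given in the sources used here. Nor do the labels state that arrays of a group came from separate animals, or whether stomach and colon came from the same animals, so p-values reflect the spread among these arrays alone, which may be technical. In whole tissue, fewer cells of a type and less RNA per cell cannot be told apart.

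Spdef encodes a transcription factor of the ETS family, best known for driving the maturation of goblet cells in the gut epithelium. HET mice carry 1 targeted copy of the gene and KO mice carry 2. The genes described first belong to general cell machinery. Uri1 encodes an unconventional prefoldin that works with chaperones of RNA polymerases, Pop4 a protein subunit of the RNA-processing enzymes RNase P and RNase MRP, Nup62 a protein of the central channel of the nuclear pore, and Arrdc4 an arrestin-domain adaptor protein related to Txnip, which restrains glucose uptake.

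Levels are log2(intensity + 16) after quantile normalization, on which a difference of 1 is a factor of 2 for bright genes and less than the true factor for dim ones. The WT effect is the WT mean minus the carrier mean, with tissue in the fit. The 7378 genes tested were those at or above a filter level, the 40th percentile of the array (6.53, or 76.5 as an intensity), in 2 or more of the 6 arrays in stomach and also in colon. A gene is said to lie apart in a tissue when both WT arrays were above, or both below, all 4 carrier arrays, and apart in both tissues when it did so in the same direction in stomach and colon.

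Several arrays departed from their group. The array labelled colon WT 2 correlated across genes with the other colon arrays at a mean of 0.896, against 0.937 to 0.959 for the other 5. Its mean level over 12 genes of the small intestine was 12.38, while the rest of the colon arrays ranged from 5.92 to 7.26. Over 12 genes that mark the colon its mean was 5.49, within the stomach range of 5.49 to 5.75, while the rest of the colon arrays ranged from 7.61 to 8.93. Values without it are given below. Xist, the RNA of the inactive X chromosome, lay at 7.48 in stomach KO 2 and 5.70 in colon KO 2, against 12.34 to 12.86 elsewhere. The Y chromosome genes Eif2s3y, Kdm5d and Uty read below the filter level in every array. In stomach KO 2 and colon KO 2 they read 5.49 and 4.58, 5.30 and 5.37, and 6.01 and 5.28. The submitters' processing notes name RMA for 3 arrays (stomach KO 1, stomach KO 2 and colon WT 1) and MAS5 for the other 9. All 12 arrays nevertheless had the same scale, with a mean intensity of 500.07 to 500.09 after the extreme 2% at each end was left out. There is no read depth on arrays, and the number of arrays limits the precision.

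Spdef itself did not tell WT from carriers. In stomach it lay at 9.19 and 8.96 in WT, 9.06 and 8.94 in HET and 8.86 and 8.63 in KO, and in colon at 10.97 and 8.74 in WT, 10.27 and 9.81 in HET and 9.08 and 9.25 in KO. WT and carrier arrays overlapped in both tissues, and the WT effect was 0.23 (SE 0.33, adjusted p = 0.832 in limma). Without colon WT 2 it was 0.64, and without colon WT 1 it was -0.20. Whether its single probe set falls in the deleted sequence is not given in the sources used here, so this reading does not check the labels.

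A total of 5 genes differed between WT and carriers at an adjusted p under 0.05, which is 0.0678% of the genes tested. Uri1, Pop4 and the extracellular matrix protein gene Optc were higher in WT, and Nup62 and Arrdc4 were lower in WT. All 5 lay apart in both tissues, so that no WT array overlapped a carrier array of its tissue, and the differences were all close to a factor of 2. Without regard to adjustment, 672 genes (9.11%) had a p under 0.05, of which 235 were higher and 437 lower in WT. Before the comparison was made, 4 of the 5 (Uri1, Pop4, Nup62 and Arrdc4) had been named with earlier results of these arrays known, and their tests here are not independent of those.

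Uri1 (probe set 1433913_at) gave the largest difference of the 5. Its level in stomach was 9.49 and 9.34 in WT, 8.04 and 8.24 in HET, and 8.21 and 8.22 in KO. In colon it was 9.06 and 8.56 in WT, 8.11 and 7.50 in HET, and 7.66 and 7.79 in KO. Every WT array was above every carrier array of its tissue. The WT effect was 1.14 (SE 0.13, adjusted p = 0.00328 in limma), or 2.21-fold.

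Pop4 (1448419_at), 4 places further along the same chromosome, showed the same arrangement. It read 8.44 and 8.40 in stomach WT, 7.53 and 7.28 in HET, and 7.62 and 7.31 in KO, and in colon 7.72 and 8.03 in WT, 6.91 and 7.03 in HET, and 6.89 and 6.83 in KO. The lowest WT array of each tissue was above the highest carrier array. WT exceeded the carriers by 0.97 (SE 0.11, adjusted p = 0.00328), or 1.96-fold.

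Arrdc4 (1426818_at) went the other way. In stomach it read 7.46 and 7.35 in WT, 8.37 and 8.16 in HET, and 8.42 and 8.56 in KO, and in colon 8.57 and 8.36 in WT, 9.15 and 9.69 in HET, and 9.35 and 9.43 in KO. Its level was higher in colon than in stomach in every genotype, and within each tissue the WT arrays were the lowest. The WT effect was -0.96 (SE 0.11, adjusted p = 0.0033), or 1.95-fold lower in WT.

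Nup62 (1415926_at) was also lower in WT. In stomach it read 7.62 and 7.81 in WT, 8.75 and 8.92 in HET, and 8.72 and 9.15 in KO, and in colon 8.10 and 7.43 in WT, 8.56 and 8.80 in HET, and 8.61 and 9.20 in KO. The colon WT arrays were the most spread, with an SD of 0.47 (n = 2) against 0.29 in the colon carriers (n = 4). For Nup62 the effect was -1.10 (SE 0.15, adjusted p = 0.0152), or 2.14-fold lower in WT. The call was lost without stomach WT 1 (adjusted p = 0.0831), stomach WT 2 (0.0664) or colon WT 2 (0.0579).

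Optc (1420578_at), on chromosome 1, was the only called gene off chromosome 7. It encodes opticin, a small leucine-rich proteoglycan of the extracellular matrix. It read 7.53 and 7.49 in stomach WT, 6.79 and 6.88 in HET, and 6.65 and 6.48 in KO, and in colon 8.06 and 7.80 in WT, 6.79 and 6.82 in HET, and 6.59 and 6.30 in KO. In both tissues the KO arrays were the lowest, HET arrays lay between, and the HET arrays were nearer to KO than to WT. WT exceeded the carriers by 1.06 (SE 0.15, adjusted p = 0.0152), or 2.08-fold. The call was lost without stomach WT 1 (adjusted p = 0.0551), stomach WT 2 (0.0524), colon WT 1 (0.0638) or colon WT 2 (0.0674).

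**Figure D1:**
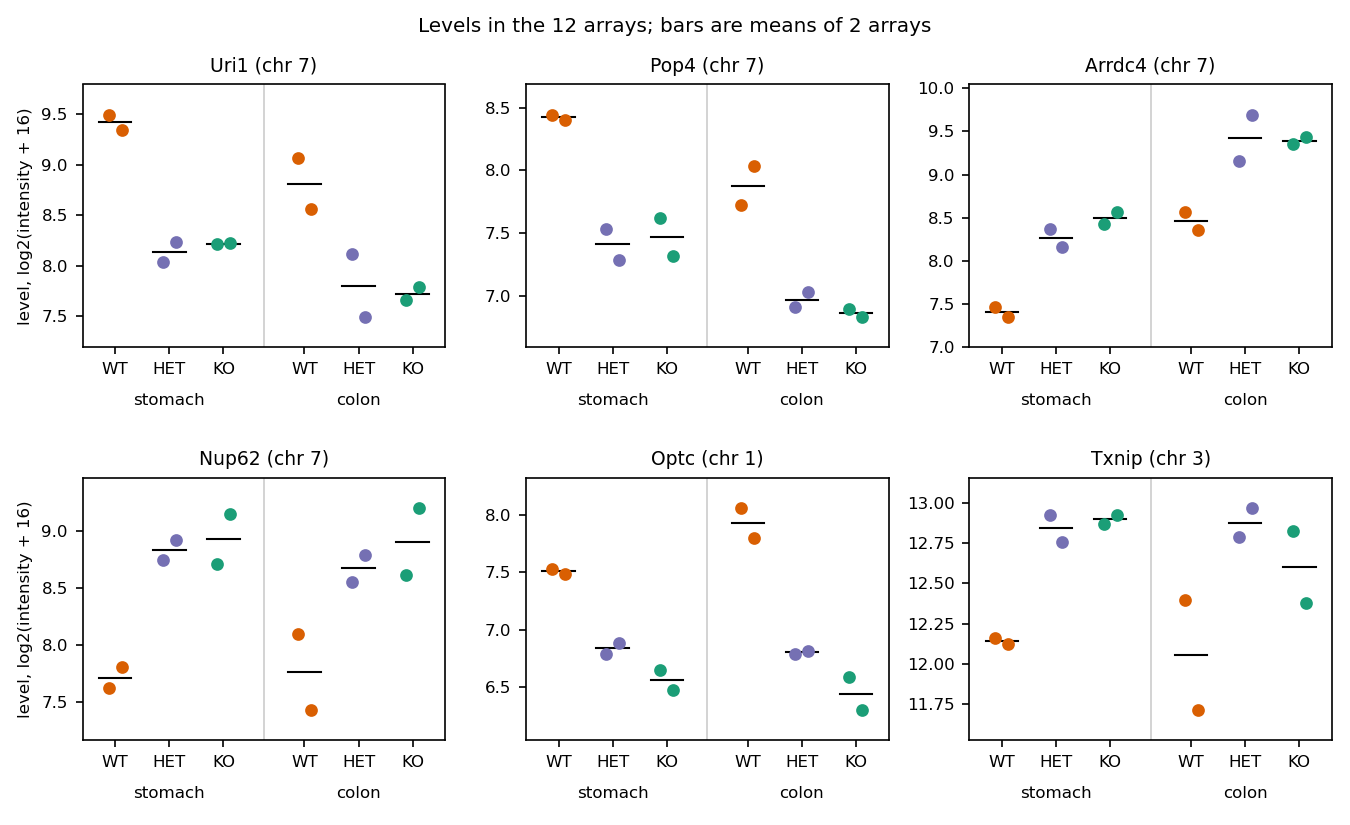
Levels, as log2(intensity + 16) after normalization, of the 5 called genes and Txnip in the 12 arrays, by tissue and genotype (vertical axes differ and do not start at 0). Points are arrays and bars the mean of 2 arrays; Uri1, Pop4 and Optc are higher and Arrdc4 and Nup62 lower in all 4 WT arrays than in the carrier arrays of the same tissue, while for Txnip colon WT 1 at 12.40 lies just above colon KO 2 at 12.38.

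The 5 genes that followed in order of p did not pass and were all lower in WT. Uevld, also on chromosome 7, which encodes a protein with a ubiquitin-conjugating-like domain, read 6.39 and 6.63 in stomach WT against 7.38 to 7.64 in the carriers, and 7.10 and 7.01 in colon WT against 7.43 to 7.80. Its WT effect was -0.78 (adjusted p = 0.0526), and since its WT mean in stomach lay below the filter level, it is given as lower in WT by at least 0.77. Trp53inp1, a stress-induced regulator of cell death and autophagy, also lay apart in both tissues, at 9.56 and 10.06 in stomach WT against 10.34 to 10.70 and at 10.91 and 10.57 in colon WT against 11.24 to 11.39 (WT effect -0.65, adjusted p = 0.0567). Its other probe set, 1416927_at, overlapped in both tissues and gave -0.27. Slc15a2, a peptide transporter, read 6.34 and 5.39 in stomach WT against 6.74 to 7.30 and 7.19 and 7.60 in colon WT against 8.04 to 8.69, a difference of at least 0.75 (adjusted p = 0.0642). The other Slc15a2 probe set, 1424730_a_at, overlapped in stomach and was lower in WT by at least 0.29. Snrnp70 on chromosome 7, a protein of the U1 spliceosomal particle, was lower in WT by -0.57 (adjusted p = 0.0642) and lay apart in both tissues, at 8.54 and 8.49 against 9.07 to 9.36 in stomach and at 8.49 and 8.43 against 8.73 to 9.12 in colon.

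Txnip, a thioredoxin-binding arrestin, is the relative of Arrdc4 named above. It read 12.16 and 12.12 in stomach WT, 12.93 and 12.76 in HET, and 12.87 and 12.93 in KO, and in colon 12.40 and 11.71 in WT, 12.79 and 12.97 in HET, and 12.83 and 12.38 in KO. The groups did not overlap in stomach, and in colon they overlapped by WT 1 and KO 2 alone. The WT effect was -0.71 (SE 0.13, adjusted p = 0.0642 in limma). It passed without colon WT 1 (-0.85, adjusted p = 0.0131) and without colon KO 2 (-0.77, adjusted p = 0.0148).

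Since the neighbours Uri1 and Pop4 were both higher in WT and the related Arrdc4 and Txnip both read lower, the promoters of the 4 marker genes and Txnip were read from RefSeq on build GRCm38.p6, 300 bases each across the annotated start, 5′ to 3′ on the gene's strand. Capitals mark CACGTG, the E-box bound by many helix-loop-helix factors, in Arrdc4, and in Txnip a pair of E-box-like letters spaced as in the carbohydrate response element known from that gene. The other 3 hold neither and are in lower case. The regions are, for Uri1, chr7:38019503-38019802 (minus strand), for Pop4 chr7:38271299-38271598 (minus), for Nup62 chr7:44815838-44816137 (plus), for Arrdc4 chr7:68749189-68749488 (minus) and for Txnip chr3:96557707-96558006 (plus).
Uri1: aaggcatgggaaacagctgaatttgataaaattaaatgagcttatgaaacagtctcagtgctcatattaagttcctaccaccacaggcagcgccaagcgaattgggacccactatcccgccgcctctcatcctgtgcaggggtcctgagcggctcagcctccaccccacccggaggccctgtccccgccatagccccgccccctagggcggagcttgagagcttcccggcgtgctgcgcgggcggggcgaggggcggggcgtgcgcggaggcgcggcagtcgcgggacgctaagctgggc
Pop4: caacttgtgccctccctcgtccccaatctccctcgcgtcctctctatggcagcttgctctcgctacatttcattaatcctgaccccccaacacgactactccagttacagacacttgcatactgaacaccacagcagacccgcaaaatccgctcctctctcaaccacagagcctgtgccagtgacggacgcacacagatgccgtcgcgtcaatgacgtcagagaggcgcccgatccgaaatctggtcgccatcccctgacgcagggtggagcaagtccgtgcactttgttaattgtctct
Nup62: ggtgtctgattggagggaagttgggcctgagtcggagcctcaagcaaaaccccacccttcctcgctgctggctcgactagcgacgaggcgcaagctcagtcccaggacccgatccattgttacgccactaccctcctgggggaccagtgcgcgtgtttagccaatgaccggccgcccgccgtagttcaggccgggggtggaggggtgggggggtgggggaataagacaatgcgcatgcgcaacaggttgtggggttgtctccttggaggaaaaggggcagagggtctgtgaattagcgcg
Arrdc4: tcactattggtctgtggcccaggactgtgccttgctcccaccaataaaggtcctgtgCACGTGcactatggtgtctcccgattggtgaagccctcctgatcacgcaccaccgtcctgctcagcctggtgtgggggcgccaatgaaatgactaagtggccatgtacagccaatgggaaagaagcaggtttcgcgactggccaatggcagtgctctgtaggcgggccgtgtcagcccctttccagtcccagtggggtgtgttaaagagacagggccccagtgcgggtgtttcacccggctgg
Txnip: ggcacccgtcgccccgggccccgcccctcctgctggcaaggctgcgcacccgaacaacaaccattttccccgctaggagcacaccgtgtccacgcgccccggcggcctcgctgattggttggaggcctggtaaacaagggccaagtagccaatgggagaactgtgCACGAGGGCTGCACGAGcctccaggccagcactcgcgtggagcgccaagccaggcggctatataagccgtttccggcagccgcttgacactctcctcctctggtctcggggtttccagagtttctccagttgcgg
Motifs were searched on both strands of 32851 such promoters. CACGTG was in 7.15% of them and in Arrdc4 only among these 5. The pair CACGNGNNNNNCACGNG was in 0.0487%, or 16 promoters, and once in Txnip, where it overlaps both copies of CACGAG (6.47% of promoters). The ETS letters with the core that Spdef is known to prefer, CCGGAT, were in 6.04% of promoters and in none of the 5, and the more general CCGGAA was in 14.9% and in Txnip. Uri1, Pop4 and Nup62 had no match to any of these 5 patterns. These are matches of letters within these windows and nothing was measured at the sites.

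The WT effect of the called chromosome 7 genes was close in size in stomach and colon, and that of Optc was larger in colon. In stomach and colon respectively it was 1.24 and 1.04 for Uri1, 0.98 and 0.96 for Pop4, -0.98 and -0.94 for Arrdc4, -1.17 and -1.03 for Nup62, and 0.81 and 1.30 for Optc. The colon effect minus the stomach effect had 95% intervals of -0.77 to 0.38 for Uri1, -0.51 to 0.46 for Pop4, -0.48 to 0.55 for Arrdc4 and -0.55 to 0.84 for Nup62. For Optc it was 0.49 (-0.11 to 1.10). All 5 intervals span 0 and allow tissue differences up to their bounds. The colon values include colon WT 2. For Nup62 colon WT 1 read 8.10 and colon WT 2 7.43, against a colon carrier mean of 8.79. Colon WT 1 was also the nearer to the carriers for Pop4 and Arrdc4, and the farther for Uri1 and Optc.

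Across all genes, no WT effect differed between the tissues at an adjusted p under 0.05 in limma, and 479 genes (6.49%) had an unadjusted p under 0.05. The smallest p-values belonged to Efhd2, Cav2, Ccnh, Zdhhc9 and Psmg2, each with an adjusted p of 0.663. Efhd2, a calcium-binding actin regulator, was lower in WT in stomach (-0.30) and higher in colon (0.71). The caveolar protein gene Cav2 was higher in stomach (0.18) and lower in colon (-0.79). The count at an adjusted p under 0.05, 0 over all arrays, was 637 without colon WT 1, which leaves the array labelled colon WT 2 as the only colon WT array, and 3 without colon WT 2.

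In stomach alone 1279 genes (17.3%) lay apart, and in colon 1324 (17.9%). Of the 1279, 174 (2.36% of all genes) lay apart in the same direction in colon and 75 in the opposite direction. Of the 174, 61 were higher and 113 lower in WT.

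**Figure D2:**
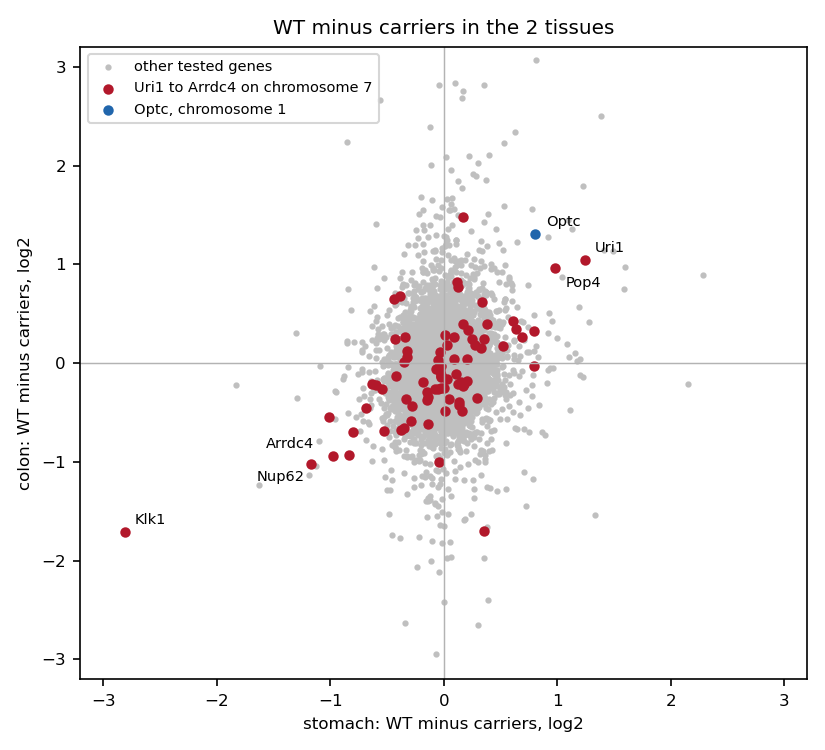
WT mean minus carrier mean, in log2, in stomach (horizontal axis) and colon (vertical axis) for each tested gene; red points are the 80 tested genes from Uri1 to Arrdc4 on chromosome 7, the blue point is Optc and 4 genes beyond the axes at 3.2 are not drawn. Uri1, Pop4, Arrdc4 and Nup62 lie near the diagonal, at 1.24 and 1.04, 0.98 and 0.96, -0.98 and -0.94, and -1.17 and -1.03.

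Heterozygous and knockout arrays read alike for the called genes of chromosome 7. KO minus HET, a difference that uses no WT array, was 0.00 for Uri1 (95% interval -0.34 to 0.34), -0.03 for Pop4 (-0.31 to 0.26), 0.10 for Arrdc4 (-0.20 to 0.39) and 0.17 for Nup62 (-0.23 to 0.56). For Optc it was -0.32 (-0.66 to 0.02). For each of the 5 the interval excludes a KO to HET step as large as the WT effect. WT minus HET and WT minus KO share the WT arrays and were 1.14 and 1.14 for Uri1, 0.96 and 0.98 for Pop4, -0.91 and -1.01 for Arrdc4, -1.02 and -1.18 for Nup62, and 0.90 and 1.21 for Optc.

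Over all genes, KO differed from HET at an adjusted p under 0.05 in 1 gene (0.0136%), Creb3l4, and at an unadjusted p under 0.05 in 300 (4.07%). Creb3l4, a membrane-bound transcription factor of secretory cells, had a pattern unlike the 5 above. It read 8.66 and 8.60 in stomach WT, 8.54 and 8.54 in HET, and 5.20 and 5.84 in KO, and in colon 9.12 and 8.11 in WT, 9.30 and 9.02 in HET, and 6.09 and 6.16 in KO. HET arrays lay just below the WT arrays in stomach and overlapped them in colon. The KO arrays lay below both, with a KO minus HET difference of -3.03.

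Of the 5 called genes, 4 lie on chromosome 7, which held 535 of the 7378 genes tested (7.25%). In the order of RefSeq protein-coding genes of GRCm38.p6, Uri1 was number 753 of that chromosome, Pop4 757, Nup62 875 and Arrdc4 1066. The arrays name no genome build, so order is used here in place of coordinates. Between Uri1 and Pop4 stand Ccne1, 1600014C10Rik and Plekhf1. Ccne1, the gene of cyclin E1, did not pass the filter. 1600014C10Rik read 7.62 and 7.94 in stomach WT against 8.02 to 8.28 in carriers and overlapped in colon (WT effect -0.04, adjusted p = 0.948). Plekhf1, an endosomal protein, overlapped in stomach and had a WT effect of -0.19 (adjusted p = 0.586). Neither of the 2 tested genes between Uri1 and Pop4 was higher in WT over both tissues.

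From Uri1 to Arrdc4 there are 314 protein-coding genes, of which 159 had a probe set of their own and 80 passed the filter. Of these 80, 15 (18.75%) lay apart in both tissues, against 2.36% of all genes tested, and without the 4 markers 11 of 76 (14.47%). On the rest of chromosome 7 the share was 8 of 455 (1.758%), and outside chromosome 7 it was 151 of 6843 (2.207%). An unadjusted p under 0.05 was found for 27 of the 80, against 9.11% of all genes, and under 0.001 for 10 of the 80, against 1 on the rest of chromosome 7 and 20 on all others. The stretch was bounded by genes known to differ, so these counts describe it and are no test. Because a gene could pass the filter through the carrier arrays alone, some genes that are dim in WT entered only for being higher in carriers.

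**Figure D3:**
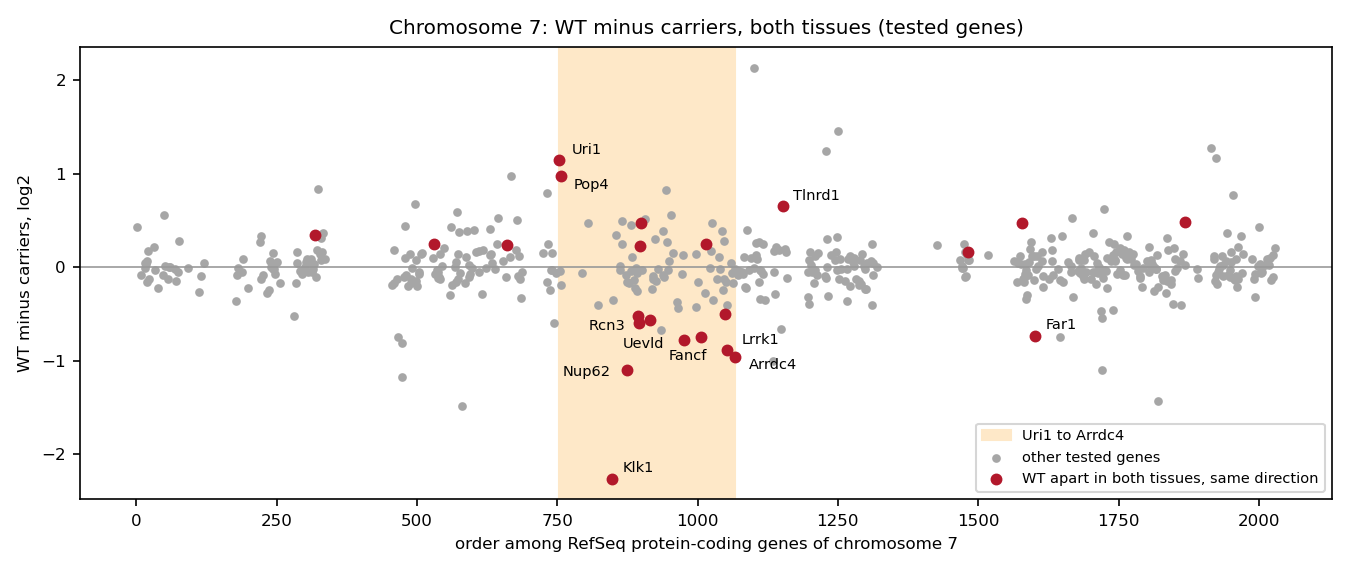
WT mean minus carrier mean over both tissues, in log2, for the 535 tested genes of chromosome 7 in RefSeq gene order; red points mark genes whose WT arrays lay apart from all carrier arrays in the same direction in both tissues, grey points the others, and the shaded band runs from Uri1 to Arrdc4. Of the 23 red points 15 fall inside the band, 5 higher and 10 lower in WT, and 8 outside it.

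The same count was made along every chromosome in 185 windows of up to 40 tested genes. No gene lay apart in both tissues in 85 windows, 1 did in 54, 2 did in 35, and 3 or 4 did in 9. The remaining 2 windows adjoin each other on chromosome 7. The window from Pdcd5 to Ppp1r15a had 9 such genes, and the window from Bcat2 to Igf1r had 5. The first holds the markers Uri1, Pop4 and Nup62, without which it had 6, and the second holds no marker. Leaving out also the genes with a group mean below the filter level, such as Klk1 and Uevld, they had 5 and 3, and the highest count off chromosome 7 was then 4. By whole chromosome, the share was highest on chromosome 1 (18 of 404, 4.455%), then chromosome 7 (23 of 535, 4.299%) and chromosome 19 (10 of 271, 3.69%). On chromosome 1 no window had more than 4, and the window that ends with Optc had 4.

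**Figure D4:**
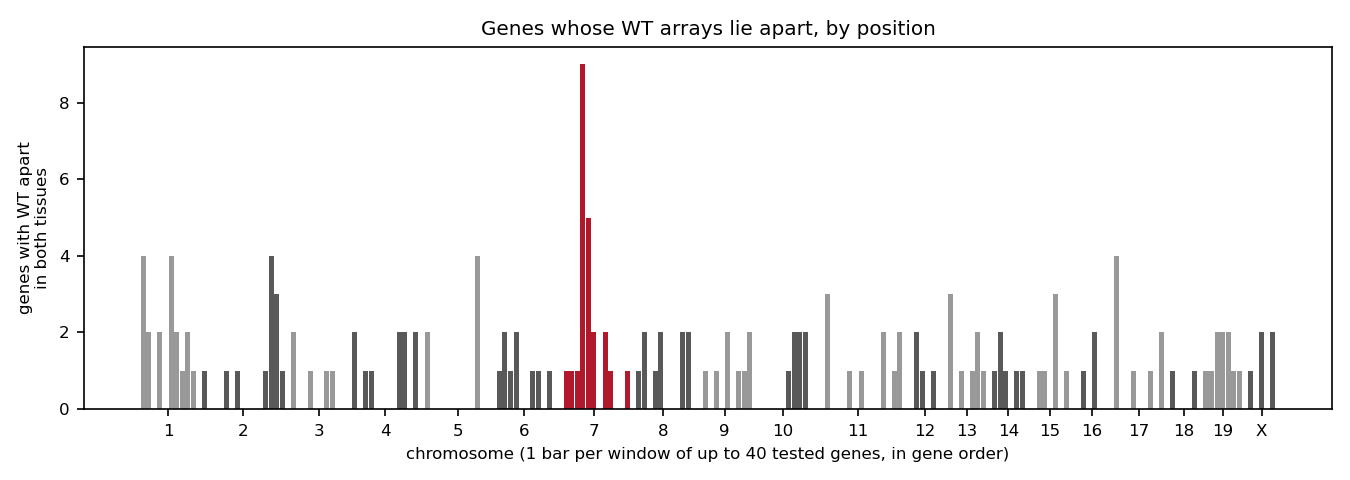
Number of genes whose WT arrays lay apart in both tissues in each window of up to 40 tested genes, in gene order along chromosomes 1 to 19 and X; red bars are chromosome 7 and shades of grey separate the other chromosomes. The 2 adjoining chromosome 7 windows, with 9 and 5 genes, are the only ones above 4.

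The neighbourhood of Spdef on chromosome 17 did not show such a cluster. Of the 50 genes on either side, 63 of 100 were on the array and 50 were tested. None was called by limma. None lay apart in both tissues, against 2.36% of all genes, and 6 of the 50 had an unadjusted p under 0.05, against 9.11%. Among 50 genes, both counts lie near those shares. These 6 were Rab40c (-0.24), the Wnt pathway scaffold Axin1 (0.29), Crebrf (-0.42), the chromatin protein Phf1 (0.35), the glucocorticoid-induced chaperone Fkbp5 (-1.16) and the DNA damage ubiquitin ligase Rnf8 (-0.35), with adjusted p-values from 0.396 to 0.526.

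In the chromosome 7 stretch both directions occurred. In gene order the 15 were Uri1, Pop4, Klk1, Nup62, Nosip, Rcn3, Rpl13a, Aldh16a1, Snrnp70, Uevld, Fancf, Nipa2, Snrpa1, Lrrk1 and Arrdc4. Other than the 4 markers they were chosen after their values were seen, and none passed at an adjusted p under 0.05. Snrpa1, a protein of the U2 spliceosomal particle, had a WT effect of -0.50 (adjusted p = 0.332 in limma). Fancf, a subunit of the Fanconi anaemia DNA repair complex, was lower in WT by at least 0.72. It read 6.36 and 6.59 in stomach WT against 7.12 to 7.43 in carriers, and 6.19 and 6.87 in colon WT against 7.02 to 7.55. Nosip, a ubiquitin ligase that binds nitric oxide synthase, had a WT effect of -0.53, and Rcn3, a calcium-binding protein of the endoplasmic reticulum, one of -0.60.

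The kinase gene Lrrk1 read 8.52 and 8.58 in stomach WT, 9.37 and 9.08 in HET, and 9.52 and 9.59 in KO, and in colon 7.42 and 7.94 in WT, 8.60 and 8.15 in HET, and 8.56 and 9.16 in KO. WT was lowest in both tissues, and KO was above HET by 0.41. Its WT effect was -0.88 (SE 0.17, adjusted p = 0.104 in limma). The 3 higher in WT that were not markers had small differences: 0.47 for the dehydrogenase family gene Aldh16a1, 0.24 for the magnesium transporter gene Nipa2 and 0.23 for the ribosomal protein gene Rpl13a.

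Klk1, a tissue kallikrein that cleaves kininogen, had the largest difference in the stretch and the largest spread. It read 5.32 and 6.07 in stomach WT, 9.63 and 9.50 in HET, and 8.46 and 6.43 in KO, and in colon 13.64 and 11.28 in WT, 14.32 and 14.37 in HET, and 13.97 and 14.02 in KO. The stomach KO 2 array lay nearer to WT than to HET. The difference was at least 1.84 lower in WT (adjusted p = 0.288 in limma). Klk1 belongs to a family of near-identical neighbouring genes, so which copy its probe set reads is uncertain, and Klk1 is also known from goblet cells.

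The median absolute WT effect was 0.24 over the 80 genes of the stretch and 0.12 over all genes. The median absolute KO minus HET difference was 0.14 and 0.11. KO against HET had an unadjusted p under 0.05 in 6 of the 80, against 4.07% over all genes. Beyond Arrdc4 the next gene apart in both tissues was Tlnrd1, with 85 genes between, which encodes a talin rod domain protein. It was higher in WT, at 7.87 and 7.74 in stomach against 7.05 to 7.44 and at 8.19 and 7.94 in colon against 7.05 to 7.51 (WT effect 0.66, adjusted p = 0.113 in limma).

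Genes read by several probe sets gave a check on whether a difference belongs to the whole transcript or to a probe set. Uri1, Pop4 and Optc had a single probe set each. Nup62 had 3. The second, 1415925_a_at, was lower in WT by -0.85 (adjusted p = 0.307 in limma over every probe set), with the arrays overlapping in colon. The third, 1448150_at, did not pass the filter. It read 6.34 and 6.38 in stomach WT against 5.73 to 6.24 in carriers, and 6.81 and 6.50 in colon WT against 5.60 to 6.31. WT arrays were thus highest in both tissues, the direction opposite to the other 2 probe sets. All but 1 of these values, colon WT 1, lay below the filter level. In colon WT was higher by at least 0.13, and in stomach no bound can be given. The second probe set of Arrdc4, 1424759_at, showed less. It lay at 8.10 and 7.77 in stomach WT against 7.99 to 8.15 in carriers and had a WT effect of -0.30 (adjusted p = 0.518). The 2 probe sets of Arrdc4 thus differed in size, though both were tested.

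Among the 27 genes of the stretch with an unadjusted p under 0.05, 6 had another probe set that passed the filter. Those 7 probe sets all had the same sign as the one used, and 2 of them lay apart in both tissues. The second probe set of Klk1 read below the filter level in stomach WT and was lower in WT by at least 1.83, and that of Lrrk1 gave -0.73. For Txnip, outside the stretch, it gave -0.56.

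**Figure D5:**
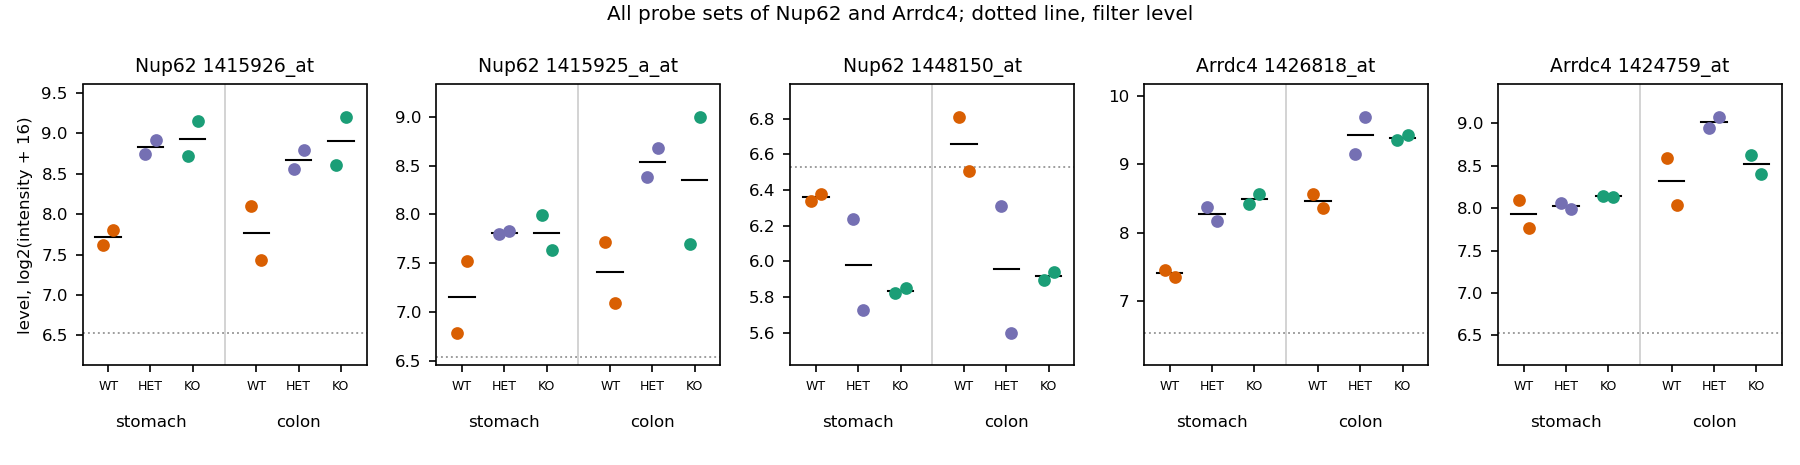
Levels, as log2(intensity + 16), of the 3 probe sets of Nup62 and the 2 of Arrdc4 in the 12 arrays by tissue and genotype, with bars at the mean of 2 arrays and a dotted line at the filter level of 6.53 (vertical axes differ and do not start at 0). The WT arrays are lowest in 1415926_at and 1426818_at, overlap the carriers in 1424759_at, and are highest in the dim 1448150_at.

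No known partner of these proteins was called. The counts that follow stand beside 9.11% of all genes with a p under 0.05, and each includes a marker named from earlier results. Of 9 tested genes of the URI prefoldin-like complex, only Uri1 had a p under 0.05, and the median WT effect was -0.02 against -0.03 over all genes. Ruvbl2, an ATPase of that complex, was at -0.23. Of 8 tested subunits of RNase P and RNase MRP, only Pop4 had a p under 0.05 (median -0.02), with Rpp25l at -0.12. Of 17 tested nuclear pore genes, only Nup62 did (median -0.08), with Aaas at -0.23. In the arrestin family, to which both belong, Arrdc4 and Txnip of 5 tested had a p under 0.05, both lower in WT (median -0.11).

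Gene lists for time of day, handling and cell make-up were examined beside these. Over all genes 9.11% had a p under 0.05, and none of 15 tested genes of the circadian clock and its output did. In stomach alone 7 of these 15 lay apart, against 17.3% of all genes, with a median WT effect of -0.28. The mean of the clock list was 7.96 and 7.98 in stomach WT, below every stomach carrier (8.06 to 8.23), and in colon none of the 15 lay apart. Its part in the called genes was not tested. Of 12 immediate-early genes 3 did, and none was called. Egr1 was at -0.64 and Atf3 at 0.61, 2 of the 12 were higher in WT, and the median was -0.18. None of 11 heat shock genes, 8 smooth muscle genes, 6 genes of enteric neurons and glia, 3 colon genes, 3 squamous genes or 16 proliferation genes did. The 3 were the only tested ones of 16 squamous genes, and the mean of all 16 varied widely in stomach. It was 7.32 and 8.28 in WT, 9.26 and 6.64 in HET, and 5.49 and 5.60 in KO. The part of squamous tissue in the called genes was not tested. Of 14 goblet and mucus cell genes only Klk1, lower in WT, had a p under 0.05, while 10 of the 14 were higher in WT (median 0.07). Among 11 interferon genes 1 had a p under 0.05, with 9 of the 11 higher in WT and a median of 0.37. The single tested sex-linked gene, Xist, did not.

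Markers of other tissues differed between WT and carriers in some arrays. The 5 tested small intestine genes were all higher in WT, with a median of 1.94. Apoa1, an apolipoprotein of enterocytes, read 14.32 in colon WT 2, 7.0 in colon WT 1 and 4.21 to 6.18 in the colon carriers, and without colon WT 2 its WT effect was 0.62. The 6 tested fat genes were all higher in WT, with a median of 0.72 and none at a p under 0.05. Adipoq, the adiponectin gene, read 10.32 and 10.78 in stomach WT against 8.65 to 9.69 in carriers and overlapped in colon. The mean of the fat list was 9.56 and 9.84 in stomach WT, above the 8.98 to 9.52 of the stomach carriers. In colon this mean was 10.06 and 10.17 in WT, 9.95 and 10.39 in HET, and 9.48 and 7.5 in KO. KO against HET had an unadjusted p under 0.05 in limma for 5 of the 6, against 4.07% of all genes. The mean of the pancreas list was 7.82 in colon KO 2, with the rest of the colon arrays between 5.61 and 5.94. Of 3 tested pancreas genes 1 was higher in WT, and the median was -0.22. Cela1, an elastase, had a WT effect of -1.08, which was -0.66 without colon WT 2. It read 11.81 in colon KO 2 and 7.74 in colon WT 2, with the rest of the colon arrays from 9.07 to 10.25. Of 6 tested B and plasma cell genes 4 were higher in WT, with a median of 0.20. Only 1 of the 6 had a p under 0.05, Jchain, the joining chain of secreted antibodies, which was lower. Jchain read 5.33 and 6.71 in stomach WT, below the 7.13 to 8.30 of the carriers, and overlapped in colon. It was lower in WT by at least 1.32 in stomach and by 0.23 in colon, or at least 0.78 as their mean. No gene of the Paneth or T and NK cell lists passed the filter. The part of these tissues in the 5 called genes was not tested, and Uri1, Pop4 and Arrdc4 were called with or without colon WT 2.

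Without colon WT 2, 3 genes were called: Uri1 at 1.26 (adjusted p = 0.00155), Pop4 at 0.92 (0.0142) and Arrdc4 at -0.92 (0.0142), by limma. Nup62 at -0.99 (0.0579) and Optc at 1.04 (0.0674) kept their size and were not called. Among the 80 genes of the stretch 19 (23.75%) then lay apart in both tissues, against 398 of 7378 (5.394%) over all genes, where colon rests on a single WT array. Uri1, Pop4 and Arrdc4 were called in every one of the 25 alternatives run, with adjusted p-values up to 0.0339.

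Without the low-Xist arrays stomach KO 2 and colon KO 2, an alternative chosen after the data were seen, 7 genes were called, adding Fkbp5 (-1.55) and Txnip (-0.77) to the 5. Without these and colon WT 2, 11 were called, which added the kinase gene Pdk4 (-1.56), Tsc22d3 (-0.79), Bcl2l11 (-0.77) and Lrrk1 (-0.86) to those 7. All 6 added genes were lower in WT. The stretch from Uri1 to Arrdc4 had 17 and 20 of its 80 genes apart in both tissues in these fits, against 329 and 725 of the 7378 genes.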

How the data were processed

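The deposited values are linear intensities per probe set, between 0.163 and 32077, made by the authors with MAS5 (9 arrays) or RMA (3), per the submitters' processing notes, with no version. After 90 controls, 22626 probe sets remained: 18003 with 1 gene, 287 with several and 4336 with none. Symbols came through gene identifiers for 17977 and were kept for 26. The brightest probe set stood for each of 11807 genes. Values were quantile-normalized as log2(intensity + 16), and genes at or above the 40th percentile in at least 2 of 6 arrays of each tissue were fitted with limma 3.58.1 in R 4.3.3 (WT against carriers plus tissue, intensity trend, 9 residual and 3.79 prior degrees of freedom), with Benjamini-Hochberg adjustment at 0.05. Further fits gave the tissue interaction and KO against HET. Differences with a group mean below the filter level are given as bounds against it.

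Genes were named by rule: the 4 markers, Spdef, the genes called and apart in both tissues or the 10 smallest p, the 5 smallest interaction p-values, and up to 2 members of each list; others were chosen after their values were seen. Members and lists were chosen with earlier results of these data known. The fits were tested on simulated data. Alternatives were other offsets, filters, normalization and moderation, every probe set, replicate blocks, processing note, 6 group means and leaving out each array. Figures used Python 3.11.15 and matplotlib 3.10.9.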

Additional observations from a re-analysis of the deposited data

Results flagged for a closer look

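A sample far from the other 3 of its carrier group marked 7 values, and chance marks about 1 in 20 such groups. Uri1 in stomach HET 1, at 8.04, lay below the other stomach carriers, which read 8.21 to 8.24. In stomach KO 2 the mean of the circadian list was 8.06 against 8.22 to 8.23. In colon KO 2 the mean of the small intestine list was 5.92 against 6.99 to 7.19, that of the exocrine pancreas list 7.82 against 5.61 to 5.94, and that of the sex-linked list 5.23 against 6.82 to 6.89. In stomach HET 1 the mean of the B and plasma cell list was 7.33 against 6.27 to 6.44, and that of the T and NK cell list 5.93 against 4.83 to 4.97.

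A probe set outside the named genes also passed the threshold. Over every probe set, 13349 were tested and 6 called. Of the 2596 tested with no single gene, 1 was called, 1425856_at, which the annotation used here leaves unnamed. It read 5.07 and 4.66 in stomach WT against 5.95 to 6.89 in the carriers, and 4.88 and 5.78 in colon WT against 6.70 to 7.73. All 4 WT values, and the stomach carrier mean of 6.50, lay below the filter level of 6.53, so the probe set entered the fit through carrier arrays alone and its fitted difference of -1.756 (adjusted p = 0.0201 in limma) is not a measured size. In colon it was lower in WT by at least 0.67, and in stomach no bound can be given. Of these 2596, 81 (3.12%) lay apart in both tissues.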

How the results depend on the processing

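The 5 calls became 9 with no normalization between arrays and 11 without colon WT 2 and both low-Xist KO arrays, each call apart in both tissues. Leaving out single arrays gave 3 to 8, with 3 without stomach WT 1, stomach WT 2 or colon WT 2 and 8 without colon WT 1. The tissue difference, 0 genes, became 3 with no filter, 3 with a filter of 4 in 12 arrays and 6 without those 3 arrays, and 0 to 637 leaving out single arrays. KO against HET, 1 gene, became 2 with the processing note as a term and 2 with 6 group means, and 1 to 2 leaving out single arrays. With 6 group means Nup62 was not called (adjusted p = 0.0796 in limma). The count of 15 genes in the chromosome 7 stretch was 15 in all 11 planned fits with every array (of which most leave the overlap of arrays untouched), and 15 to 19 leaving out single arrays, where it can only rise. Whether replicate numbers pair the samples is not given in the labels. As deviations from the mean of their group, WT, HET and KO arrays numbered 1 correlated between tissues at 0.094, 0.063 and 0.122, while both KO 2 arrays share low Xist. Either replicate block, as a term or as a random block (correlation 0.041), left 5 genes called. Of 1125 values of 45 named genes under 25 alternatives, 1094 kept direction and side of the threshold, 8 lost and 19 gained a call, and 4 reversed. These were Psmg2 and 1600014C10Rik without stomach WT 1, 1600014C10Rik also without stomach HET 1, and Spdef without colon WT 1, with ranges over the arrays left out of -0.011 to 0.29 for Psmg2, -0.23 to 0.10 for 1600014C10Rik and -0.20 to 0.64 for Spdef. The cause was not tested.

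Precision is limited by 4 WT arrays, of which colon WT 2 reads colon genes at their stomach level. Genes near background in WT have differences that the offset understates.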

Other observations

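Genes known to be induced by glucocorticoids or fasting are described here from a list chosen after its members' values were seen, which includes Arrdc4, Txnip and Trp53inp1, so that its counts support nothing. Of 28 on the array 25 were tested. An unadjusted p under 0.05 was found for 11 of the 25, where 9.11% of all genes had one. All 11 were lower in WT, and 3 of the 25 were higher in WT. The median was -0.34, against -0.03 over all genes. Only Arrdc4 was called by limma. Fkbp5 read 8.88 and 9.99 in stomach WT, 11.22 and 11.10 in HET, and 10.87 and 9.29 in KO, and in colon 10.24 and 9.80 in WT, 11.55 and 11.34 in HET, and 11.57 and 10.13 in KO. Both KO 2 arrays, those with low Xist, lay within the WT range of their tissue. Tsc22d3, the glucocorticoid-induced leucine zipper gene, had a WT effect of -0.51, and Bcl2l11, a cell death gene, one of -0.63. Klf9, a glucocorticoid-induced factor, was at -0.38 and lay apart in both tissues. Pdk4, which turns cells from glucose to fat as fuel, read 8.85 and 9.47 in stomach WT against 9.85 to 11.03 in carriers, and overlapped in colon (WT effect -0.82, adjusted p = 0.557).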
